A study of Mus musculus with 8 samples.

Results

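Long noncoding RNAs that stay largely in the nucleus were followed through 8 RNA-seq libraries of mouse CD4+ T cells. The set holds *Malat1*, *Neat1*, *Kcnq1ot1*, *Tug1*, *Pvt1*, *Airn* and *Gm26917*, which are 7 of the 52636 rows of the expression table, found by gene name. All 7 are among the 12816 rows in which 2 or more libraries held a value of 60 or higher, the minimum for a test. They were picked from their difference between regulatory T cells (Tregs) and conventional T cells (Tconvs), so that this difference is described here without a test. The contrasts between genotypes within each subset were not used for the choice and were tested.

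The Tregs were sorted from spleen as CD4+ Foxp3+ cells and the Tconvs as CD4+ Foxp3- cells, 200000 cells for each library. The paper's methods list depletion with an antibody to CD25 for the Tconvs but not for the Tregs. This step and the subset cannot be told apart. Control mice were CD27+/- and CD70Tg mice were CD11c-Cd70tg;CD27+/-, so that both carry a single copy of CD27, and both bear a Foxp3 reporter. The CD11c promoter places CD70, the ligand of CD27, on dendritic cells, which were not sequenced. Each combination of subset and genotype had 2 libraries. Libraries are called 1 and 2 in the order of the table's columns. The mice were 6 to 8 weeks old. Nothing in these sources says that the 2 libraries of a group came from separate mice, so that p-values measure the spread between these libraries, which may be technical.

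Most mRNAs are exported once they are spliced and polyadenylated, whereas some long RNAs remain at chromatin or in nuclear bodies. *Malat1* lies in nuclear speckles, the stores of splicing factors, and *Neat1* is the scaffold around which paraspeckles are built. *Kcnq1ot1* and *Airn* are unspliced or poorly spliced antisense transcripts of imprinted domains, made from the paternal chromosome and needed there to silence neighbours in cis. Both *Malat1* and *Neat1* are made in most mammalian cell types, lymphocytes included.

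The mature 3' ends of *Malat1* and of the long form of *Neat1* carry no poly(A) tail. They are protected by a triple helix, in which U-rich stretches pair with a downstream A-rich stretch. The regions of these ends are shown because they set the 2 members with the best known nuclear bodies apart from the others. The sequences are those of GENCODE M21 (mm10), on the minus strand of chromosome 19. Capitals mark the 3 exact stretches of at least 10 bases that the last 400 bases of the *Malat1* transcript and the last 100 bases of the *Neat1* transcript share. Past the last of them, the *Malat1* sequence shown runs on beyond the A-rich stretch into its annotated transcript. That of *Neat1* stops there, at its annotated end.
*Malat1*, chr19:5795970-5796065: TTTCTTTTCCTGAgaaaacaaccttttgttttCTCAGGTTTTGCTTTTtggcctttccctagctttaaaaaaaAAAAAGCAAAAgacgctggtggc
*Neat1*, chr19:5824708-5824797: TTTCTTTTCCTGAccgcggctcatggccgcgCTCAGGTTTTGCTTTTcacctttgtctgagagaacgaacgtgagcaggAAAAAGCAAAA

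Of the 141767 transcripts in the annotation, searched on the sense strand, 2 hold the 3 stretches in this order within 100 bases, which is 0.00141%. They are the *Malat1* and *Neat1* transcripts from which the stretches were taken. Singly, the stretches TTTCTTTTCCTGA, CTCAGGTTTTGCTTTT and AAAAAGCAAAA are in 0.0247%, 0.00141% and 0.436% of transcripts. No annotated transcript of *Kcnq1ot1*, *Tug1*, *Pvt1*, *Airn* or *Gm26917* holds any of them, nor does the short form of *Neat1*, of 3004 bases. *Gm26917* is of another kind, as the last 100 bases of its longer transcript on the plus strand of chromosome 17 show, in which G and C make up 73.0%.
*Gm26917*, chr17:39846242-39846341: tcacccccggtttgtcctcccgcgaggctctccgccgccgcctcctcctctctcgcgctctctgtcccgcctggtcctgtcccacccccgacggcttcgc

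In mm10, *Malat1* occupies chr19:5795690-5802672 and *Neat1* chr19:5824708-5845478, both on the minus strand. *Kcnq1ot1* is a single exon of 93092 bases, chr7:143203458-143296549, antisense to the introns and exons of *Kcnq1*. *Tug1* lies at chr11:3639785-3649673, head to head with *Morc2a*. *Airn* runs for 118.8 kb through the *Igf2r* locus, chr17:12741311-12860136, of which 3.03% is annotated as exon. *Pvt1* runs for 340.1 kb downstream of *Myc*, chr15:62037986-62378096, of which 2.06% is exon. *Gm26917*, chr17:39843013-39846341, ends next to rows that the annotation or RefSeq relates to ribosomal RNA, *Gm42418* among them. The GC content of the longest transcript was 69.1% for *Gm26917* and between 37.9% and 47.3% for the other members. Reads are counted per exon, so that unspliced RNA of *Airn* and *Pvt1* is largely outside these values.

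Values are reads scaled by the authors to 20 M per library and rounded up. From the step between neighbouring low values, which is the worth of 1 read, the libraries rest on about 6.94 to 33.31 M reads in Tconvs and on 1.92 to 4.57 M in Tregs. Every Treg library is thus shallower than every Tconv library, and depth and subset cannot be told apart. *Foxp3* was between 19769 and 21367 in the Treg libraries and between 1039 and 1497 in the Tconv libraries. Markers of macrophages and monocytes summed to 3690 to 4197 in Treg and 1355 to 1867 in Tconv libraries, and of the 7 tested (8 listed) 5 were called higher in control and 6 in CD70Tg Tregs (limma, adjusted p under 0.05 and an absolute log2 difference over 1), as were 14.7% and 12.3% of all tested rows. The 6 B cell markers summed to 395 to 505 and 168 to 367, respectively. Of 3 tested, 1 was called higher in control Tregs, and in CD70Tg Tregs 2 were called higher and 1, *Cd22*, lower. The 5 NK cell markers, *Eomes* among them, summed to 120 to 1547 in Treg and 870 to 3610 in Tconv libraries. Of these, 3 of 3 tested were called lower in Tregs of both genotypes. The 2 CD8 T cell markers summed to 317 to 660 and 681 to 1590, with 1 called lower in control and 2 in CD70Tg Tregs. Of all tested rows 4.43% and 4.94% were called lower. The 6 erythroid markers summed to 2450 to 4046 in CD70Tg Tregs, 571 to 1592 in control Tregs and 874 to 1520 in Tconvs, and of 5 tested, 5 were called higher in CD70Tg Tregs than in CD70Tg Tconvs and 4 higher than in control Tregs, the latter 0 by limma-voom. The neutrophil gene *S100a9* was at 95 and 104 in CD70Tg Tregs and at 10 or less in the other libraries. The part of other cells in the values below was not tested. In bulk RNA, fewer cells that express a gene and less RNA per cell cannot be told apart. The Y-linked *Ddx3y*, *Uty*, *Kdm5d* and *Eif2s3y* were at 32 or less in all 8 libraries.

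*Malat1* was at 674 and 741 in control Tconvs and at 1438 and 397 in CD70Tg Tconvs. In Tregs it was at 7415 and 12505 in controls and at 9895 and 8798 in CD70Tg mice. All 4 Treg libraries thus lay above all 4 Tconv libraries. The mean of control Tregs, 9960 ± 3599, was 14.1 times that of control Tconvs, 708 ± 47.4, and the mean of CD70Tg Tregs, 9346 ± 776, was 10.2 times that of CD70Tg Tconvs, 918 ± 736 (SD, 2 libraries per mean). On the scale log2(value + 5), the difference was 3.76 and 3.62, and 63 and 86 rows of the 12816 had a larger one.

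*Neat1*, 5' neighbour of *Malat1* on the same strand, differed less. It was at 662 and 409 in control Tconvs and 1018 and 500 in CD70Tg Tconvs, and at 1510 and 2444 in control Tregs and 2571 and 2230 in CD70Tg Tregs. The subsets did not overlap, and the log2 difference was 1.87 in controls and 1.74 in CD70Tg mice. *Malat1* was 0.794 to 1.81 times *Neat1* in Tconv libraries and 3.85 to 5.12 times *Neat1* in Treg libraries, so that the pair did not move by the same factor. *Frmd8*, the protein-coding gene beside them, went the other way, from 8756 to 11067 in Tconvs to 4704 to 6381 in Tregs.

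Of the imprinted antisense RNAs, *Kcnq1ot1* was at 12 and 28 in control Tconvs and at 15 and 13 in CD70Tg Tconvs, against 73 and 171 in control Tregs and 105 and 77 in CD70Tg Tregs. The subsets did not overlap and the log2 difference was 2.31 and 2.32, but these values rest on about 5 to 21 reads in Tconv and 10 to 39 in Treg libraries. *Kcnq1*, the gene it is antisense to, was at 17 or less throughout.

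*Airn* was at 45 and 47 in control Tconvs and at 98 and 136 in control Tregs, a log2 difference of 1.24. In CD70Tg mice it was at 67 and 34 in Tconvs and 63 and 82 in Tregs. Here the subsets overlapped, and the difference of 0.54 was close to the spread within groups, with an SD of 0.48. *Igf2r*, which *Airn* silences on the paternal chromosome in many tissues, was at 4063 to 4314 in Tconvs and at 5361 to 7162 in Tregs. *Airn* amounted to 0.00788 to 0.0165 of *Igf2r* in Tconv and to 0.0106 to 0.0205 in Treg libraries, which overlap.

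*Tug1*, an RNA found in the nucleus and in the cytoplasm, had the smallest difference in both genotypes with all libraries kept. Its rank in CD70Tg mice, at 0.49, rested on CD70Tg Tconv 2, without which *Airn* differed by 0.1 and *Gm26917* by 0.21. Over the alternatives *Tug1* differed by 0.41 to 0.57 there. *Tug1* was at 1455 and 1616 in control and 1646 and 1679 in CD70Tg Tconvs, and at 2242 and 2549 in control and 2216 and 2474 in CD70Tg Tregs. No Treg library reached down to a Tconv library, although the means differed by a factor of only 1.56 and 1.41. *Morc2a*, with which it shares exon sequence on the opposite strand, was at 875 to 1141 in Tconvs and at 1001 to 1218 in Tregs.

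*Pvt1*, the host of several microRNAs beside the oncogene *Myc*, was at 86 and 132 in control and 147 and 167 in CD70Tg Tconvs. It was at 238 and 233 in control and 262 and 245 in CD70Tg Tregs. The subsets did not overlap, and the log2 difference was 1.11 in controls and 0.68 in CD70Tg mice. *Myc* had a log2 difference of 0.57 (adjusted p = 0.00085, limma) and 0.63 (adjusted p = 0.00045), under the threshold of 1 in both. *Pvt1* amounted to 0.0394 to 0.113 of *Myc* in Tconv and to 0.0733 to 0.112 in Treg libraries, so that this ratio overlapped.

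*Gm26917* did not separate the subsets. It was at 2139 and 1915 in control and 4250 and 1755 in CD70Tg Tconvs, and at 2063 and 17580 in control and 3960 and 6090 in CD70Tg Tregs. A single library, control Treg 2, was 8.52 times the other of its group. Without it, the log2 difference in controls was 0.03 in place of 1.57, and without CD70Tg Tconv 2 that in CD70Tg mice was 0.21 in place of 0.85. *Gm42418* next to it was at 22368 to 44497 in Tconv and 46859 to 106670 in Treg libraries, the highest again being control Treg 2. *Lars2*, which encodes a mitochondrial leucyl-tRNA synthetase, was at 14747 in that library and at 4406 to 8249 in the other 7.

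In controls, 6 of the 7 members had both Treg libraries above both Tconv libraries, as had 42.7% of all tested rows. In CD70Tg mice it was 5 of 7, against 34.2% of rows. All 4 Treg libraries lay above all 4 Tconv libraries for 5 members, and for 24.5% of rows. Since the members were picked on this difference, nothing is read from these counts. The median difference of the members was 1.57 in controls and 0.85 in CD70Tg mice, and that of all tested rows was 0.07 and -0.02. All differences had the same sign, but their sizes ranged from 0.64 to 3.76 and from 0.49 to 3.62, respectively, and *Malat1* was 0.236 to 0.874 times *Tug1* in Tconv libraries against 3.31 to 4.91 times in Treg libraries.

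**Figure D1:**
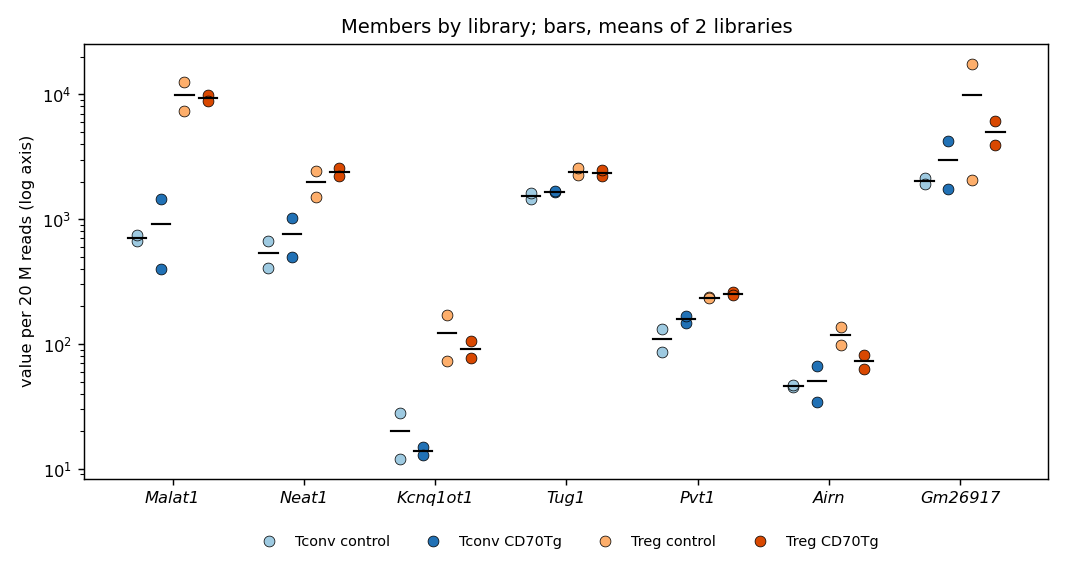
Value per 20 M reads (log axis) of each member in the 8 libraries, by subset and genotype, with bars at the mean of 2 libraries. *Malat1*, *Neat1*, *Kcnq1ot1*, *Tug1* and *Pvt1* have every Treg point above every Tconv point, while *Airn* and *Gm26917* overlap, the latter with 1 control Treg library at 17580.

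Per kb of exon, the order of the members could be compared within each group. In control Tconvs *Gm26917* came first with a level of 609 ± 47.6 per kb, then *Tug1* with 158 ± 11.7, *Malat1* with 101 ± 6.78 and *Neat1* with 25.8 ± 8.61 (SD, n = 2 each). *Pvt1* and *Airn* followed with levels of 15.6 ± 4.65 and 12.8 ± 0.393 per kb, which overlapped, and *Kcnq1ot1* was last with 0.215 ± 0.122 (SD, n = 2 each). In control Tregs *Malat1* stood above *Tug1*, with levels of 1426 ± 515 and 246 ± 22.3 per kb (SD, n = 2 each). Its place relative to *Gm26917*, at 2950 ± 3296 per kb (SD, n = 2), was not settled because their libraries overlapped. *Malat1* and *Tug1* thus exchanged places between the subsets in control mice. In CD70Tg Tconvs their libraries overlapped, at 131 ± 105 for *Malat1* and 171 ± 2.4 for *Tug1* per kb, and in CD70Tg Tregs the levels were 1338 ± 111 and 241 ± 18.7 (SD, n = 2 each).

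Small rows annotated inside the members give values at other points of the transcript. *Gm27694*, 86 bases on the same strand 3.6 kb into *Malat1*, was at 14 to 41 in Tconvs and at 223 to 377 in Tregs, a log2 difference of 3.62 in controls and 3.0 in CD70Tg mice. In *Neat1* such rows start at 0.4, 0.7 and 1.0 kb from the 5' end, in the part that the short and the long form share. For *Gm28006*, *Gm27505* and *Gm27533* the log2 differences were 1.91, 2.15 and 1.69 in controls and 1.90, 1.62 and 1.74 in CD70Tg mice. For *Gm27517*, *Gm27624* and *Gm27937* in *Tug1* they were 0.44, 0.73 and 0.93 in controls and 0.29, 0.54 and 0.45 in CD70Tg mice. Reads that fall on such a row and on its host may be assigned to either, and the strand setting of the counting is not given in the sources used here.

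The genotype comparison asked whether chronic engagement of CD27 changes these RNAs within a subset. In Tregs, 0 of the 7 members passed an adjusted p-value under 0.05 with an absolute log2 change over 1 (limma), which 3.6% of tested rows did. In Tconvs, 0 of 7 passed, against 4.65% of rows, and the difference between the responses of the subsets passed for 0 of 7, against 1.02% of rows. With unadjusted p-values under 0.05 these counts were 0, 0 and 0, and limma-voom on the recovered numbers of reads gave 0 calls in each as well.

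For *Tug1* the interval was narrow. CD70Tg minus control was -0.03 in Tregs (95% interval -0.29 to 0.23, adjusted p = 0.92, limma) and 0.12 in Tconvs (-0.14 to 0.38, adjusted p = 0.71), so that a change of 2-fold lay outside it in both subsets. For *Malat1* it was -0.05 in Tregs (-0.82 to 0.73, adjusted p = 0.96) and 0.10 in Tconvs (-0.68 to 0.88, adjusted p = 0.94). For *Pvt1* it was 0.10 in Tregs (-0.46 to 0.67, adjusted p = 0.87) and 0.53 in Tconvs (-0.03 to 1.10, adjusted p = 0.30), where both CD70Tg libraries were above both controls. *Myc* beside it had values of -0.45 (adjusted p = 0.025) in Tregs and -0.51 (adjusted p = 0.0084) in Tconvs, under the threshold on size.

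*Neat1* had values of 0.32 (-0.27 to 0.91, adjusted p = 0.56) in Tregs and 0.45 (-0.14 to 1.04, adjusted p = 0.44) in Tconvs. *Airn* had the most negative value in Tregs, -0.65 (-1.47 to 0.17, adjusted p = 0.36), both CD70Tg libraries being below both controls. In Tconvs *Airn* was at 0.06 (-0.76 to 0.87, adjusted p = 0.96). The intervals of *Kcnq1ot1* and *Gm26917* were wide, from -1.31 to 0.71 and from -1.58 to 0.99 in Tregs and from -1.33 to 0.69 and from -0.85 to 1.71 in Tconvs, and leave room for changes of more than 2-fold. The lowest adjusted p-value for a difference between the responses was 0.72, for *Airn*.

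For *Malat1* in Tconvs the call depended on a single library, since the CD70Tg libraries at 1438 and 397 lay on either side of the controls at 674 and 741. Without CD70Tg Tconv 2 the change was 1.02 (adjusted p = 0.013, limma), and without CD70Tg Tconv 1 it was -0.82 (adjusted p = 0.020). For *Gm26917* in Tregs the change was -1.84 (adjusted p = 0.0049) without control Treg 1 and 1.25 (adjusted p = 0.046) without control Treg 2. In these fits the lone library of a group is assumed to vary like the other groups.

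**Figure D2:**
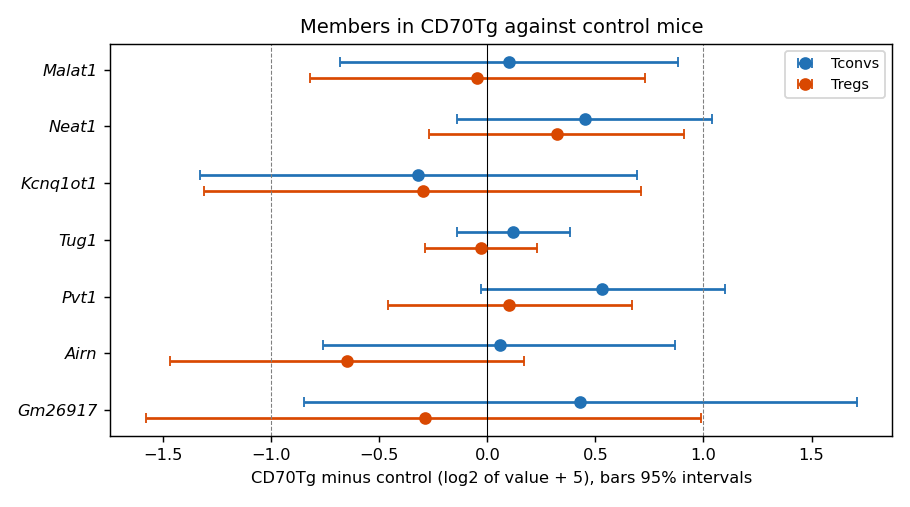
CD70Tg minus control on the log2(value + 5) scale for each member in Tregs and Tconvs, with 95% intervals from limma and dashed lines at a 2-fold change. All 14 intervals include 0, those of *Tug1* being the narrowest and those of *Gm26917* the widest.

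The libraries of a group differed among themselves, and the members are given here beside ribosomal and mitochondrial rows, which are commonly read as signs of RNA quality and library preparation. CD70Tg Tconv 2 was 0.276 times CD70Tg Tconv 1 for *Malat1*, 0.491 times for *Neat1* and 0.413 times for *Gm26917*, and also 0.315 times for the mitochondrial *mt-Co1*, 0.503 times for *Gm42418* and 0.451 times for *Xist*. For *Tug1* and *Pvt1* the same ratio was 1.02 and 1.14. Control Treg 2 was above control Treg 1 for *Malat1* (1.69 times), *Neat1* (1.62), *Kcnq1ot1* (2.34), *Gm42418* (2.28) and *mt-Co1* (1.19).

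In control Tconvs library 2 was 2.33 times library 1 for *mt-Co1* and 1.45 times for *Gm42418*. It was also above library 1 for *Kcnq1ot1* (2.33 times), *Pvt1* (1.53), *Tug1* (1.11), *Malat1* (1.1) and *Airn* (1.04), and below it for *Neat1* (0.618) and *Gm26917* (0.895). In CD70Tg Tregs library 2 was 0.889 times library 1 for *Malat1*, 0.867 times for *Neat1*, 1.54 times for *Gm26917* and 0.998 times for *mt-Co1*. The part of RNA quality in the values of the members was not tested.

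**Figure D3:**
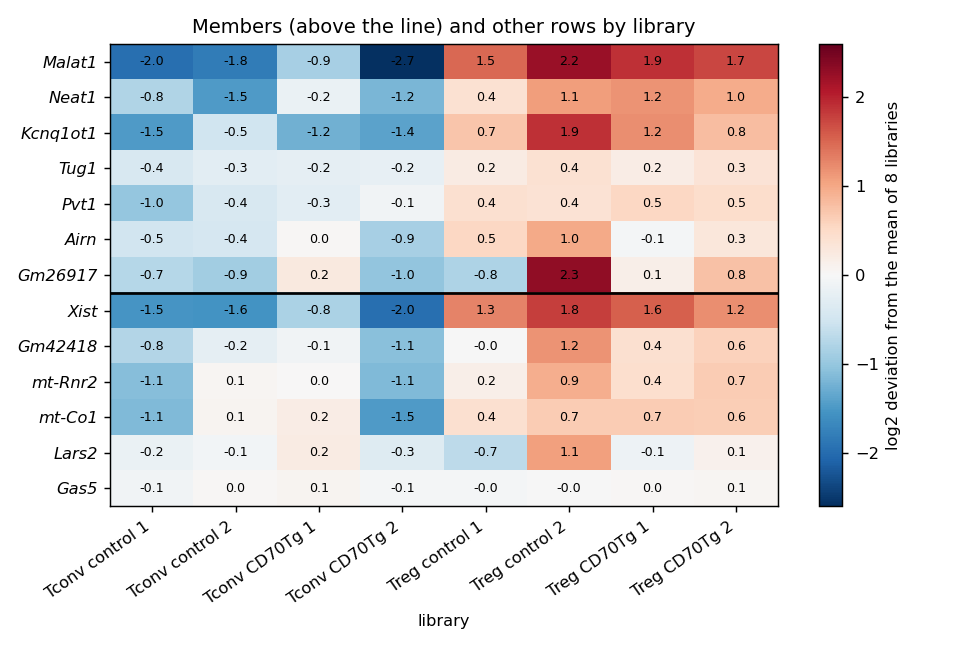
Log2 deviation of each row from its mean over the 8 libraries, members above the line and other rows below it. *Malat1* and *Xist* run from blue in the 4 Tconv libraries to red in the 4 Treg libraries. *mt-Co1* and *mt-Rnr2* are low in control Tconv 1 and CD70Tg Tconv 2 only, *Gm26917* and *Lars2* are high in control Treg 2, and *Gas5* is flat.

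Some rows related to ribosomal RNA and some mitochondrial transcripts were called higher in Tregs. Of 6 tested rRNA-related rows other than *Gm26917*, 4 were called higher in each genotype, where 14.7% of all rows were called higher in controls and 12.3% in CD70Tg mice, and 0 were lower. They were *Gm42418*, *AY036118*, which rose and fell with it over the 8 libraries, and the mitochondrial *mt-Rnr1* and *mt-Rnr2*. These are thus not 4 separate signals. *Gm42418* had log2 differences of 1.07 (adjusted p = 0.012, limma) and 1.09 (adjusted p = 0.011). Of 7 tested mitochondrial mRNAs 3 were higher in each genotype, *mt-Co1* by 1.07 (adjusted p = 0.033) and 1.30 (adjusted p = 0.014).

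Several single libraries decided these calls. Without control Tconv 1, 0 of the 6 rRNA-related and 0 of the 7 mitochondrial rows were called in controls, and without CD70Tg Tconv 2 both counts were 0 in CD70Tg mice. Both were 0 in controls without control Treg 2 too. In CD70Tg mice 0 mitochondrial mRNAs were called without CD70Tg Treg 1 and without CD70Tg Treg 2, and the count of rRNA-related rows was 1 without the latter. *mt-Co1* differed by 0.46 without control Tconv 1 and 0.95 without control Treg 2 in controls. In CD70Tg mice it differed by 0.46 without CD70Tg Tconv 2, and by 1.29 (adjusted p = 0.064, limma) and 1.3 (adjusted p = 0.057) without CD70Tg Treg 1 or 2, where its size was kept and the call was lost. Other omissions raised the counts. Without control Tconv 2 in controls, and without CD70Tg Tconv 1 in CD70Tg mice, 7 of 7 mitochondrial mRNAs were called and *mt-Co1* differed by 1.68 and 2.13, and without control Treg 1 in controls 6 of 6 rRNA-related rows were called. In controls the count of rRNA-related rows was 1 with TMM and with median-of-ratios factors, and without a minimum value it was 0 in controls and 1 in CD70Tg mice. With TMM and with median-of-ratios factors 0 of the 7 mitochondrial mRNAs were called in either genotype, and without a minimum value *mt-Co1* was called in neither. Without control Tconv 1, *Malat1* differed by 3.69, *Neat1* by 2.22, *Kcnq1ot1* by 1.83, *Pvt1* by 0.81 and *Tug1* by 0.56 in controls. Without CD70Tg Tconv 2, these 5 differed by 2.69, 1.23, 2.25, 0.77 and 0.51 in CD70Tg mice, while *Airn* differed by 0.1 in place of 0.54.

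Other nuclear long noncoding RNAs, a list fixed with earlier results of these data known, were tested next to the members. Of 10 tested, 7 were called higher in control and 5 in CD70Tg Tregs, against 14.7% and 12.3% of all rows, 0 were called lower, and the median difference was 1.83 and 1.33. *Xist*, which coats the inactive X chromosome, was at 779 to 1726 in Tconvs and 7058 to 10640 in Tregs, a log2 difference of 3.09 (adjusted p = 7.1e-08, limma) and 2.77 (adjusted p = 3.4e-07). Its antisense partner *Tsix* differed by 3.06 and 2.70, and both share reads where strand is not used. *Flicr*, transcribed beside *Foxp3* and overlapping it, differed by 3.80 and 3.69. Since the subsets were sorted by *Foxp3*, the direction of *Flicr* could be foreseen. *Firre*, an X-linked RNA of nuclear architecture, differed by 1.74 (adjusted p = 0.0032) and 1.86 (adjusted p = 0.0022), and *Mir17hg*, host of a microRNA cluster, by 2.05 and 1.7. *Firre*, *Mir17hg* and *Ftx*, the last called in controls only, were under 60 in every Tconv library. They passed the minimum for a test through Tregs only, so that the filter largely set their direction. The call of *Mir17hg* was lost without a minimum value in both genotypes, in controls without control Tconv 2, and in CD70Tg mice without CD70Tg Tconv 2 or CD70Tg Treg 1. *Peg13*, an imprinted RNA, went the other way, with values of -0.42 (adjusted p = 0.024) and -0.79 (adjusted p = 0.00033) that were under the threshold on size.

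With 1 library left out, 5 to 7 of this list were called in controls and 4 to 6 in CD70Tg mice, and with a mean of at least 60 as the minimum 5 and 3 of the 7 that were then tested. *Xist* differed by 2.20 to 3.34 over the alternatives in CD70Tg mice and by 2.83 to 3.34 in controls. *Malat1* amounted to 0.51 to 0.833 of *Xist* in Tconv libraries and to 0.99 to 1.25 in Treg libraries.

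RNAs that host small nucleolar RNAs, which are spliced in the nucleus and whose exons are then degraded in the cytoplasm, were mixed. Of 14 tested, 4 were higher and 1 lower in control Tregs, and 3 were higher and 0 lower in CD70Tg Tregs. Of all tested rows, 14.7% and 12.3% were called higher and 4.43% and 4.94% lower. *Snhg5* differed by 1.31 and 1.23 and *Snhg20* by 1.72 and 1.75, whereas *Snhg8* differed by -1.43 (adjusted p = 8.4e-06, limma) in controls and -0.99 in CD70Tg mice. *Gas5*, the most abundant of them, was at 2618 to 2968 in Tconvs and 2727 to 2920 in Tregs. *Rn7sk*, a structured RNA that holds the elongation factor P-TEFb inactive, was at 281 to 928 in Tconvs and 1437 to 3751 in Tregs, a log2 difference of 1.46 (adjusted p = 0.0047) and 2.57 (adjusted p = 5.2e-05). Its call in controls was lost without control Treg 2 and without a minimum value.

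Genes for proteins of the same nuclear bodies were tested as well. Of 18 paraspeckle proteins, 0 were called in either genotype by limma and 0 by limma-voom. By limma, 14.7% of all rows were called higher in control and 12.3% in CD70Tg Tregs, and 4.43% and 4.94% lower. Unadjusted p-values were under 0.05 for 5 and 6 of the 18, and medians were 0.07 and -0.06. For unadjusted p-values the share of all rows is not given here, so that these counts have no background. *Nono* and *Sfpq*, the core pair of paraspeckles, differed by -0.18 and 0.20 in controls and -0.23 and 0.22 in CD70Tg mice. Of 20 proteins of nuclear speckles and splicing, 2 were called higher in control and 1 in CD70Tg Tregs, below the 14.7% and 12.3% of all rows, with unadjusted p-values under 0.05 for 13 in each. They were *Clk1* (1.13 and 1.14) and, in controls, *Clk4* (1.10), kinases of SR proteins. The call of *Clk1* was lost in controls without control Tconv 2 or control Treg 2 and in CD70Tg mice without CD70Tg Tconv 2. The median of this list was 0.55 and 0.33, with 19 and 20 members above 0. *Srrm2*, a scaffold of speckles, was at 8385 to 9376 in Tconvs and 15029 to 19204 in Tregs, a difference of 0.96 and 0.90 that was under the threshold on size.

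Of the genes next to the members, *Cd81* near *Kcnq1ot1* was higher in Tregs by 1.49 (adjusted p = 6.3e-07, limma) and 1.86 (adjusted p = 7.3e-08). *Cdkn1c*, in the domain that *Kcnq1ot1* silences, was at 30 to 44 in Tconvs and 62 to 117 in Tregs, a difference of 1.2 (adjusted p = 0.023) and 1.09 (adjusted p = 0.039). It passed the minimum for a test through Tregs only. These calls of *Cdkn1c* were lost in both genotypes with a pseudocount of 20 and without a minimum value, and in CD70Tg mice with the 4 libraries alone. In controls they were also lost without control Tconv 1, control Tconv 2 or control Treg 1, and in CD70Tg mice without control Tconv 1, control Tconv 2, CD70Tg Tconv 2, CD70Tg Treg 1 or CD70Tg Treg 2. *Smtn*, beside *Tug1*, was lower in control Tregs, at 15 and 40 against 53 and 70 in control Tconvs (-1.14, adjusted p = 0.048), with a difference of -0.4 (adjusted p = 0.5) in CD70Tg mice. This call of *Smtn* was lost with pseudocounts of 1 and 20, without a minimum value, with a mean of at least 60, with the protein-coding total, with the clone-named rows kept and with limma-voom, and without control Tconv 1, control Tconv 2, CD70Tg Tconv 1, CD70Tg Tconv 2 or control Treg 1. Between genotypes, 0 of the 90 tested genes of these lists were called in Tregs by limma or by limma-voom, where limma called 3.6% of all rows. Unadjusted p-values were under 0.05 for 13, with no share of all rows to set beside them. In Tconvs, where 4.65% of all rows were called, the 1 call was *Selenom*, a neighbour of *Tug1*, at 25 and 11 in controls and 55 and 86 in CD70Tg mice (log2 change 1.75, adjusted p = 0.025, limma). *Selenom* was under 60 in every control library and passed the minimum for a test through CD70Tg mice only.

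**Figure D4:**
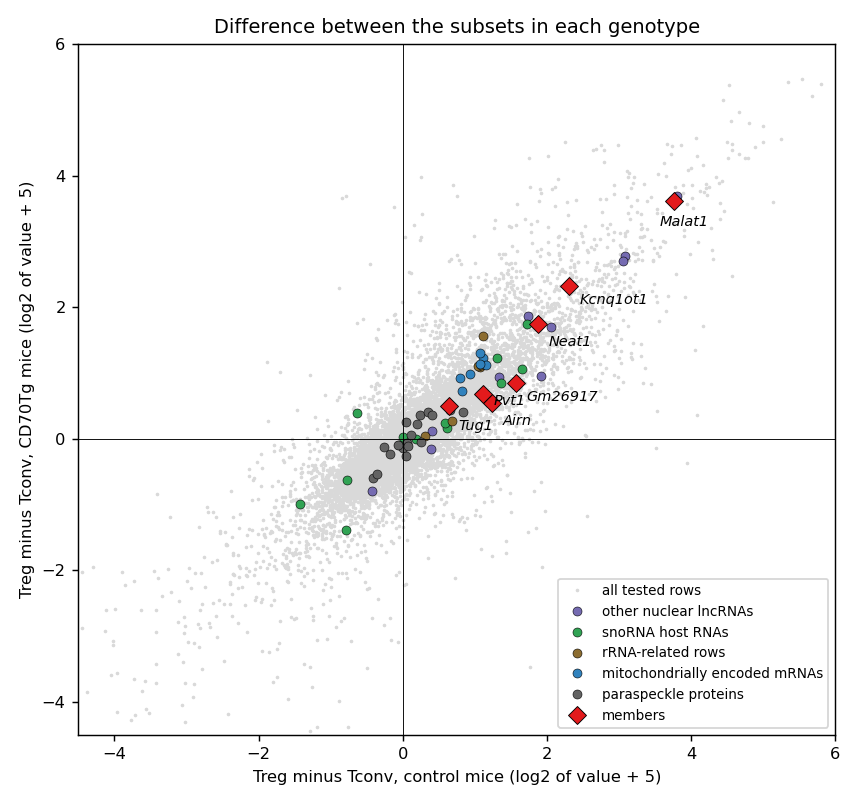
Treg minus Tconv difference in CD70Tg mice against that in control mice, on the log2(value + 5) scale, for the members (diamonds), rows of 5 lists and all tested rows in grey, of which 22 lie outside the axes. Both axes have libraries of their own. The members lie in the upper right quadrant, *Malat1* next to *Flicr* and above *Xist*, and the paraspeckle proteins around 0.

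By annotation, 27.1% of 221 lincRNA rows were called higher in control Tregs and 11.3% lower, against 13.3% and 4.01% of 10941 protein-coding rows. The median of lincRNA rows was 0.23 and 0.20, and that of 575 antisense rows 0.06 and -0.06. Pooled and without the members, the lincRNA and antisense rows, 789 in number, had medians of 0.08 and 0.00. Pseudogenes stood apart, with 43.2% of 400 rows higher in controls and 63.2% in CD70Tg mice and medians of 0.92 and 1.44. In each library, the summed values of lincRNA rows were 0.68% to 0.886% of the total in Tconvs and 0.978% to 1.68% in Tregs. Pseudogenes held 0.393% to 0.424% in Tconvs and 0.641% to 0.829% in Tregs. Without the members, *Xist* and the ribosomal rows of chromosome 17, lincRNA rows held 0.415% to 0.453% in Tconvs and 0.444% to 0.474% in Tregs, which overlap. The part of these shifts in the values of the members was not tested.

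Long rows were shifted towards Tregs as well. Among protein-coding rows, the median difference was -0.32 under 1000 bases of exon and 0.44 from 8000 bases on in controls, and -0.2 and 0.23 in CD70Tg mice. Over the 10941 rows, which share the libraries, Spearman's correlation of the difference with exon length was 0.32 in controls and 0.23 in CD70Tg mice. The difference of *Tug1*, with 9734 bases of exon, was exceeded by 38.0% and 33.7% of the 1959 protein-coding rows from 8000 bases on. That of *Neat1*, with 20771 bases, was exceeded by 6.28% and 5.1% of them. *Malat1*, with 6983 bases, belongs to the 4326 rows of 4000 to 8000 bases, of which 0.509% and 0.601% had a larger difference. The lincRNA and antisense rows of 4000 to 8000 bases, 84 in number, had a median of 0.49 and 0.41.

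**Figure D5:**
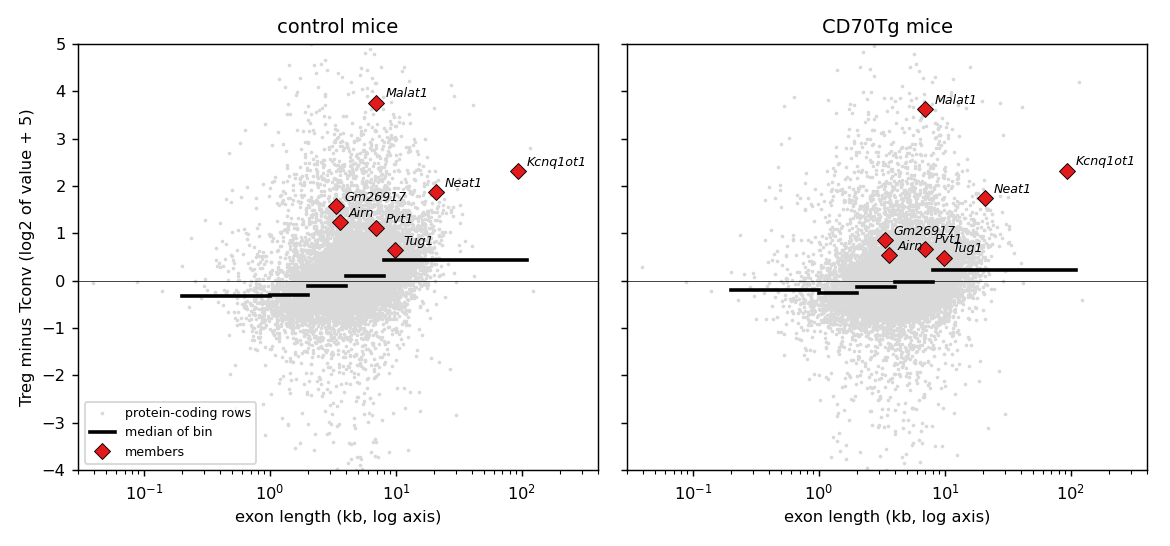
Treg minus Tconv difference against exon length in kb (log axis), in control mice on the left and CD70Tg mice on the right, for protein-coding rows (grey), the median of each length bin (black lines) and the members (diamonds). The median of the longest bin is above that of the shortest, 0.44 against -0.32 in controls and 0.23 against -0.2 in CD70Tg mice, where the bin of 1000 to 2000 bases is lowest at -0.25, and *Tug1* lies close to the line of its bin while *Malat1*, *Neat1* and *Kcnq1ot1* lie far above theirs. Of the grey rows, 27 and 33 are outside the vertical axes.

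The rows most like each member over the 8 libraries were found by Pearson's correlation of log2(value + 5), given as a description. For *Malat1* they were *Gm37376*, which overlaps it on the opposite strand, *Gm27927*, which lies inside *Xist*, *Gm13340*, *Xist* itself and *Gm20417*, with r between 0.997 and 0.998. For *Neat1* they were *Gm27533* and *Gm27505*, which lie inside it, and *Gdap10*, *Mrs2* and *4932422M17Rik* (at least 0.991). The nearest to *Kcnq1ot1* were the protein-coding *Pan3*, *Tmem245*, *Mlxip*, *Pde1b* and *Zcchc7* (0.984 to 0.989). For *Tug1* they were *Rsrc2*, *Mir1896*, *Anks3*, *Ctnnd1* and *Zfp91* (0.990 to 0.993), and for *Pvt1* *9930111J21Rik1*, *Gm42686*, *Wnk1*, *Fryl* and *Vps13a* (0.987 to 0.992).

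*Airn* and *Gm26917* had looser company. For *Airn* the nearest were *2900076A07Rik*, *Gm28913*, *Zfp329*, *Edrf1* and *Gm17491* (0.953 to 0.990), and for *Gm26917* they were *Gm15564*, *Gm13910*, *Gm10197*, *Gm23935* and *Gm25911* (0.909 to 0.971). Between members, r was 0.959 for *Malat1* and *Neat1*, 0.941 for *Malat1* and *Kcnq1ot1* and 0.937 for *Malat1* and *Tug1*. It was lowest for *Pvt1* and *Gm26917*, at 0.490. These points are the same 8 libraries, which share the split between subsets and with it depth. For *Malat1*, *Neat1*, *Kcnq1ot1*, *Tug1* and *Pvt1* they fall into 2 clusters that do not overlap.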

How the data were processed

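Libraries were prepared with the Ovation SoLo kit from total RNA and sequenced in pairs. The authors trimmed reads with Trimmomatic 0.36, mapped them to mm10 with STAR 2.5.3, counted them with HTSeq 0.9.1 and deposited a score, the counts scaled to 20 M per library and rounded up. Totals lay between 19963628 and 20164600. The columns for controls are named KO, whereas the sample labels say WT and the titles F1, the paper's name for CD27+/- mice. They were taken as the CD27+/- controls of the paper, since the labels hold no other genotype besides CD70Tg. Clone-named rows (4131) were not analysed, since the step between their low values is that of a different library. Loci, classes and sequences are from GENCODE M21, which holds 99.6% of identifiers.

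Values were tested with limma 3.58.1 (R 4.3.3) on log2(value + 5), for rows with at least 60 in at least 2 libraries, in one model over 4 groups with a trend in the prior variance and Benjamini-Hochberg adjustment over the 12816 rows. Rows were called at an adjusted p under 0.05 and an absolute log2 change over 1, and the difference between responses at the adjusted p alone. A row under 60 in every library of a subset or genotype passed the minimum through the other only, which largely set its direction. Duplicated names were resolved to the row with the largest total. The floor of 3 reads ranged from 1.8 to 31.2, was below every member's value and covers counting error only. Members and lists were chosen with earlier results of these data known. Named were the members, called or defining genes of the lists, and the 5 rows most like each member. The fit was tested on simulated data. Alternatives were other pseudocounts, minima, scalings, limma-voom on recovered reads, the clone-named rows kept, the 4 libraries alone and each library left out.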

Additional observations from a re-analysis of the deposited data

How the results depend on the processing

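No paired analysis was possible because the columns of the table carry no replicate numbers that tie them to the numbered sample titles. Columns and titles run in the same order of groups, but libraries were not paired by that order. Whether equal numbers mark libraries prepared together was not tested. The counts of members called between genotypes or for the difference between responses were 0 under the alternatives other than those that left out a library, where they ranged from 0 to 1 in Tregs, in Tconvs and for the difference. *Malat1* in Tconvs reversed to -0.82 without CD70Tg Tconv 1 and was 1.02 without CD70Tg Tconv 2, and *Gm26917* in Tregs reversed to 1.25 without control Treg 2 and was -1.84 without control Treg 1. The difference between responses of *Gm26917* was -2.27 without control Treg 1. The Treg minus Tconv difference of *Kcnq1ot1* in CD70Tg mice, 2.32, was 2.6 and 1.7 with pseudocounts of 1 and 20 and 2.72 with limma-voom. With 1 library left out, that of *Malat1* ranged from 2.69 to 4.54 in CD70Tg mice and that of *Gm26917* from 0.03 to 3.12 in controls.

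Of the 90 genes of the other lists, 23 were called higher in control and 19 in CD70Tg Tregs, as were 14.7% and 12.3% of all tested rows. These counts were 14 without a minimum value in controls, and 13 to 25 and 8 to 25, respectively, with 1 library left out. The 2 calls of lower genes in controls became 1 with pseudocounts of 1 and 20, with a mean of at least 60, with the protein-coding total, with the clone-named rows kept and with limma-voom, and 1 to 2 with a library left out. In CD70Tg mice 0 became 1 with a pseudocount of 1 and with limma-voom, and 0 to 1 with a library left out. With TMM and median-of-ratios factors 0 mitochondrial mRNAs were called in either genotype, and 1 rRNA-related row in controls. Protein-coding rows held a median of 93.8% of the Treg libraries, and 92.9% with the clone-named rows kept. Members with few reads, *Kcnq1ot1* and *Airn*, are limited by counting. *Airn* had fewest in CD70Tg Treg 1, about 6 in a library of 1.92 M reads. *Kcnq1ot1* had fewest in CD70Tg Tconv 1, about 5 in a library of 6.94 M reads.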
